A study of Mus musculus with 8 samples.

Results

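The genes described are 37 listed genes of the mouse lysosome: 8 cathepsins and other proteases, 10 glycosidases, 6 genes of lipid breakdown and 2 sulfatases, 3 membrane proteins, 4 genes of the proton pump, the transcription factors Tfeb and Tfe3, the autophagy receptor Sqstm1 and the progranulin gene Grn. They were chosen by name from 55450 gene identifiers, and 36 of them were among the 14641 genes with enough counts to be tested. The protease gene Ctss had 0 counts in each of the 8 libraries, and a count of 0 is compatible with up to 3 counts per library (counting error alone). The RNA libraries, of polyadenylated RNA, came from PyMT-1099, a mouse mammary tumour line made with the polyoma middle T oncogene and used to study epithelial to mesenchymal transition. The 4 groups of 2 libraries were Agps knockout cells kept for 10 days in TGF-β (2 ng/ml), untreated Agps knockout cells, parental (WT) cells with the same treatment, and untreated parental cells. Agps encodes a peroxisomal enzyme of ether lipid synthesis. The 4 knockout libraries carry the same line tag, so a single knockout line stands for the knockout, and what sets that line apart from the parental cells beyond Agps cannot be told apart from the loss of Agps.

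Lysosomes are acidic organelles in which hydrolases break down proteins, glycans and lipids delivered by endocytosis and autophagy. The vacuolar ATPase pumps protons into the lumen, heavily glycosylated membrane proteins such as LAMP1 and LAMP2 line the membrane, and the channel mucolipin 1 releases calcium. TFEB and TFE3 are transcription factors of the MiT/TFE family that are held in the cytoplasm by mTORC1 signalling in fed cells and, once in the nucleus, activate lysosome and autophagy genes through a short palindromic element with the core CACGTG. Their activity is set largely by phosphorylation and location, which RNA levels do not measure.

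The promoters are shown because that element is the one through which the factors are known to act. RefSeq promoters (GRCm38.p6, 250 bases before to 50 bases after each start) were found for 33 of the 37 genes, as 38 promoters. Ctsh, Asah1, Ctsb and Atp6v1h had no entry. The core CACGTG, a palindrome that reads the same on both strands, was in 12 of the 38 promoters (31.6%), against 2349 of all 32851 promoters of the table (7.15%). The longer TCACGTG, searched on both strands and always overlapping a core, was in 11 of the 38 (28.9%), against 3.77% of all promoters. The element was first described from promoters of lysosome genes, so these shares are a description and not independent evidence. The 12 genes were Lamp1, Mcoln1, Ctsa, Ctsd, Ctsl, Gla, Glb1, Gaa, Naglu, Arsa, Atp6v0d1 and Atp6v1a. Below are 50-base windows around the match nearest the start for genes that changed with TGF-β in at least 1 line, and the whole promoter of Lamp1, which held 4 matches. Capitals mark CACGTG or, where present, TCACGTG on either strand, and all are written 5′ to 3′ on the gene's strand.
Ctsl (chr13:64370721-64370770, minus strand): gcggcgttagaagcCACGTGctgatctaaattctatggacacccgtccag
Ctsd (chr7:142387898-142387947, minus strand): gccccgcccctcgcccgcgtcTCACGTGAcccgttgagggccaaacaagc
Atp6v0d1 (chr8:105566040-105566089, minus strand): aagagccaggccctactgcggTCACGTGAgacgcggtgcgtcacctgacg
Gla (chrX:134601172-134601221, minus strand): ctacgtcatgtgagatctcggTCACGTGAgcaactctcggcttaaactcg
Ctsa (chr2:164833756-164833805, plus strand): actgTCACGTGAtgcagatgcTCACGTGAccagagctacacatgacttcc
Gaa (chr11:119267801-119267850, plus strand): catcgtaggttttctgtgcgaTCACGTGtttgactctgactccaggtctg
Lamp1 (chr8:13158911-13159210, plus strand): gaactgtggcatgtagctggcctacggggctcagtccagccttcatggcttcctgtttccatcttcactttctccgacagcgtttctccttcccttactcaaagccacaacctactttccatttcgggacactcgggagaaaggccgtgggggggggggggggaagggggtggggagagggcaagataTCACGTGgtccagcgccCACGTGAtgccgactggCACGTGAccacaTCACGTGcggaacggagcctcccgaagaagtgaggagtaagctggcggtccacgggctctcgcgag

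In Lamp1 the 4 matches began 61, 45, 28 and 15 bases before the RefSeq start. In Ctsl, whose RNA rose the most of these genes with TGF-β, the match lay 236 bases before the RefSeq start. The GENCODE span of Ctsl reaches further upstream, to 64370890 on the minus strand, so the match lies inside that span. No match was in the promoters of Gusb, Lipa or Gm2a, whose TGF-β change also reached 1 (log2) in at least 1 line. Among other genes, none was in those of Tfeb, Tfe3, Grn, Psap, Lamp2, Tpp1 or Sqstm1. Counted by gene over the tested genes with a promoter, the core was found for 4 of 13 genes that rose with TGF-β in knockout cells, 0 of 5 that fell and 8 of 14 not called. In parental cells it was found for 4 of 11 that rose, 2 of 7 that fell and 6 of 14 not called. The match was thus found in all 3 classes in parental cells, and a match is neither proof of binding nor its absence proof of the opposite.

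Library totals ran from 17007268 to 21311831 counts, mitochondrially encoded genes took 2.36% to 4.31% of them, and replicate libraries had a Pearson's r of 0.991 to 0.994 across genes, which are not independent replicates. Whether replicate libraries stem from separate cultures is not stated, so p-values reflect the spread among the libraries at hand, possibly technical. Agps stood at 43.9 and 35.6 CPM (counts scaled to library size, with TMM factors) in knockout cells with TGF-β, 32.9 and 29.3 CPM in untreated knockout cells, 265 and 266 CPM in parental cells with TGF-β, and 357 and 329.8 CPM in untreated parental cells. The knockout was therefore visible as reduced and not absent Agps RNA (log2 fold change -2.74 with TGF-β and -3.47 without). Of 5 epithelial markers Krt18 lay between 1885 and 2742 CPM in the 8 libraries and Epcam had 0 counts in each. Their summed level was 3234 and 3448 CPM in knockout cells with TGF-β, 4506 and 4181 CPM in untreated knockout cells, 3125 and 3327 CPM in parental cells with TGF-β, and 6396 and 5801 CPM in untreated parental cells. Of the 4 tested, 2 fell with TGF-β in knockout and 4 in parental cells (Cdh1 by 2.53 and 2.26 and Krt19 by 2.97 and 2.29 on the log2 scale), and 2 were lower in knockout than in parental cells with TGF-β and 4 without. Macrophages are rich in lysosomes. Of 10 macrophage markers Adgre1 and Tyrobp had 0 counts in every library and Ptprc at most 5, and the summed level of the list was 54.3 and 56.5 CPM in knockout cells with TGF-β, 49.0 and 50.5 CPM in untreated knockout cells, 64.4 and 66.8 CPM in parental cells with TGF-β, and 62.4 and 68.5 CPM in untreated parental cells. Most of that sum was Csf1r and Cd14. Of the 5 that were tested, 4 rose and 1 fell with TGF-β in knockout cells, and 3 rose and 1 fell in parental cells, among them the lysosomal membrane genes Cd68 and Laptm5, which rose in each line (Cd68 by 2.21 in knockout and 2.20 in parental cells on the log2 scale). Laptm5 counts were 96 and 114 in treated and 0 and 0 in untreated knockout cells, and 89 and 92 in treated and 0 and 1 in untreated parental cells. Summed fibroblast markers were 16.1 and 24.9975 CPM, 0.0966 and 0.139 CPM, 67.04 and 100.8 CPM, and 1.21 and 0.703 CPM in these groups in the same order, and summed endothelial markers, nearly all Cdh5, 8.24 and 6.71, 0.821 and 0.5104, 76.53 and 76.5, and 1.58 and 1.29 CPM. The part of such genes in the lysosome results was not tested, and in bulk RNA fewer cells of a kind and less RNA per cell cannot be told apart.

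TGF-β moved lysosome genes in both directions in both lines. Of 36 tested, 14 rose and 8 fell in knockout cells, and 12 rose and 10 fell in parental cells (edgeR quasi-likelihood test, Benjamini-Hochberg adjusted p under 0.05 over all genes tested, here "called"). That is 61.1% called in each line, against 41.4% of all genes in knockout cells and 42.5% in parental cells. In knockout cells 20.9% of all genes rose and 20.6% fell, and in parental cells 21.3% rose and 21.2% fell. The median log2 fold change of the 36 genes was 0.0074 in knockout cells and -0.0037 in parental cells, against 0.01 or less for all genes. The lines share no library in this comparison. 11 genes (30.6%) were called higher in both and 8 (22.2%) lower in both, against 15.4% and 15.9% of all genes. The sign was the same for 34 of 36 (94.4%), against 80.3% of all genes. The listed genes were not matched to all genes by count, and genes with more counts are called more easily. The lowest count of a tested listed gene was 204 (Tfeb), against a filter minimum of 10. The part of this in the shares was not tested. Most changes were below 1 on the log2 scale: 5 of the 36 genes were called and reached it in knockout cells and 3 in parental cells. Of all genes tested, 18.1% did so in knockout cells and 18.4% in parental cells.

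**Figure D1:**
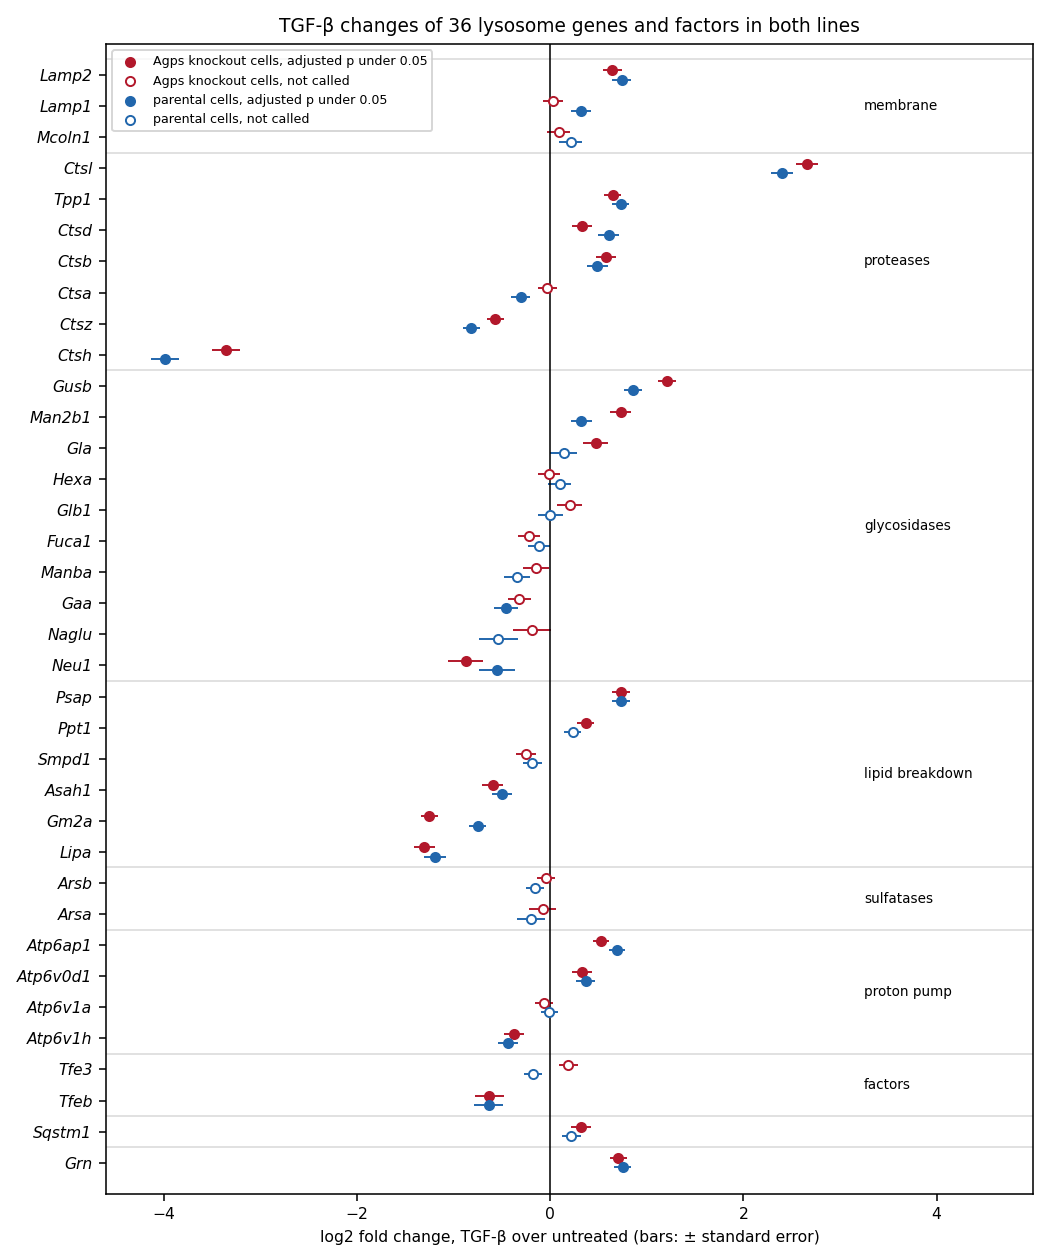
TGF-β changes of the 36 tested lysosome genes, grouped by role. The x axis is the log2 fold change of TGF-β over untreated cells, points are the fitted values (red, Agps knockout cells; blue, parental cells), bars are ± 1 standard error, and filled points have an adjusted p under 0.05. Ctsl lies far to the right at 2.66 and 2.40 and Ctsh far to the left at -3.36 and -3.99.

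Among the proteases, cathepsin L and cathepsin H moved furthest and in opposite directions. Ctsl (ENSMUSG00000021477, GRCm38 chromosome 13, 64359337 to 64370890) encodes a cysteine endopeptidase. It stood at 449 and 482 CPM in knockout cells with TGF-β, against 66.5 and 81.0 CPM in untreated knockout cells, and at 454 and 467 CPM in parental cells with TGF-β, against 82.0 and 92.7 CPM in untreated parental cells. Treated and untreated libraries were far apart in both lines, with log2 fold changes of 2.66 in knockout cells (SE 0.11, adjusted p = 8.73e-09) and 2.40 in parental cells (SE 0.11, adjusted p = 1.97e-08). Of the exonic length of Ctsl 26.9% lies opposite Gm47123 and 6.09% is shared with Gm49230, and whether counting used strand is not given in the sources used here.

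Ctsh (ENSMUSG00000032359, chromosome 9, 90054152 to 90076089), a cysteine protease that mainly trims amino ends, stood at 12.9 and 17.2 CPM in knockout cells with TGF-β, against 165 and 144 CPM in untreated knockout cells. In parental cells it stood at 18.02 and 21.2 CPM with TGF-β, against 331 and 291 CPM untreated. It was low in all 4 treated libraries, and untreated libraries of the lines did not overlap. The log2 fold change was -3.36 in knockout cells (SE 0.15, adjusted p = 1.21e-08) and -3.99 in parental cells (SE 0.15, adjusted p = 4.2e-09).

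The other proteases changed less. Tpp1, a tripeptidyl peptidase, rose by 0.64 in knockout and 0.73 in parental cells on the log2 scale. Ctsb, a cysteine protease, rose by 0.58 and 0.49, and Ctsd, the main aspartic protease of lysosomes, by 0.33 and 0.60, in the lines in that order. The carboxypeptidase gene Ctsz fell by 0.57 in knockout and 0.82 in parental cells. Ctsa, which encodes a carboxypeptidase that also protects β-galactosidase and neuraminidase, had a log2 fold change of -0.03 in knockout cells (adjusted p = 0.843) and fell by 0.31 in parental cells (adjusted p = 0.031). Of the exonic length of Ctsd 34.4% is shared with Gm49369 on the same strand, and 12.8% of Ctsb and 17.4% of Ctsa lie opposite other genes.

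Of the 10 glycosidases, 3 rose and 1 fell in knockout cells, and 2 rose and 2 fell in parental cells. That is 40% called in each line, near the 41.4% of all genes in knockout cells and 42.5% in parental cells. Gusb (ENSMUSG00000025534, chromosome 5, 129989011 to 130003049), the β-glucuronidase gene, stood at 117 and 119 CPM in knockout cells with TGF-β, against 49.7 and 52.1 CPM in untreated knockout cells. It stood at 62.9 and 58.1 CPM in parental cells with TGF-β, against 34.8 and 32.1 CPM in untreated parental cells. No groups overlapped, and untreated knockout and treated parental cells lay closest. The rise was 1.21 in knockout cells (SE 0.09, adjusted p = 9.12e-07) and 0.85 in parental cells (SE 0.10, adjusted p = 2.24e-05). Man2b1, a lysosomal α-mannosidase, rose by 0.73 in knockout and 0.32 in parental cells. Gla, the α-galactosidase A gene of Fabry disease, rose by 0.47 in knockout cells (adjusted p = 0.0144) and had a log2 fold change of 0.14 in parental cells (adjusted p = 0.456). The sialidase gene Neu1 fell by 0.88 in knockout and 0.55 in parental cells. Gaa, which degrades glycogen and is lost in Pompe disease, fell by 0.46 in parental cells and had -0.32 in knockout cells (adjusted p = 0.0537). Glb1, Hexa, Manba, Naglu and Fuca1 were called in neither line. Their log2 fold changes ran from -0.54 (Naglu in parental cells, adjusted p = 0.0511) to 0.20 (Glb1 in knockout cells). Manba had -0.34 in parental cells (adjusted p = 0.0621). In DESeq2, 3 of the glycosidases were called lower in parental cells.

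Genes of lipid breakdown divided. Lipa (ENSMUSG00000024781, chromosome 19, 34492318 to 34527474) encodes the acid lipase that frees cholesterol and fatty acids from esters. It stood at 138 and 151 CPM in knockout cells with TGF-β, against 316 and 396 CPM in untreated knockout cells, and at 95.6 and 101 CPM in parental cells with TGF-β, against 215 and 236 CPM in untreated parental cells. Every treated library lay below every untreated one, and the falls were 1.30 in knockout cells (SE 0.11, adjusted p = 2.51e-06) and 1.20 in parental cells (SE 0.11, adjusted p = 6.05e-06). Gm2a (ENSMUSG00000000594, chromosome 11, 55098115 to 55113029), whose product presents gangliosides to hexosaminidase A, stood at 66.5 and 63.9 CPM in knockout cells with TGF-β, against 152 and 158 CPM in untreated knockout cells. In parental cells it stood at 61.8 and 62.1 CPM with TGF-β, against 99.7 and 109 CPM untreated. Treated cells of the lines were close together and untreated ones were not. The fall was 1.25 in knockout cells (SE 0.09, adjusted p = 4.45e-07) and 0.75 in parental cells (SE 0.09, adjusted p = 3.14e-05). Asah1, the acid ceramidase gene, fell by 0.60 in knockout and 0.50 in parental cells.

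Psap moved against these. It encodes prosaposin, the precursor of the saposin cofactors of sphingolipid breakdown, and like Lamp2, Man2b1 and Atp6v0d1 below its library values are given although it was picked after they were seen. It stood at 626 and 712 CPM in knockout cells with TGF-β, against 383 and 424 CPM in untreated knockout cells. It stood at 663 and 625 CPM in parental cells with TGF-β, against 377 and 399 CPM in untreated parental cells. The rise was 0.73 in each line (SE 0.09 in knockout and 0.10 in parental cells; adjusted p = 7.63e-05 and 7.97e-05 in that order). Ppt1, a thioesterase that removes palmitate from proteins, rose by 0.37 in knockout cells and had 0.23 in parental cells (adjusted p = 0.0552). Smpd1, the acid sphingomyelinase gene, and the sulfatase genes Arsa and Arsb were called in neither line, between -0.25 and -0.04. Of exonic length, 18.75% of Arsa and 39.9% of Arsb lie opposite other genes.

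Among membrane and pump genes, Lamp2 stood at 293 and 294 CPM in knockout cells with TGF-β, against 171 and 206 CPM in untreated knockout cells. It stood at 505 and 543 CPM in parental cells with TGF-β, against 307 and 322 CPM in untreated parental cells. It rose by 0.64 in knockout and 0.74 in parental cells, while treated knockout cells did not reach the level of untreated parental cells. Lamp1 had 0.03 in knockout cells (adjusted p = 0.854) and rose by 0.32 in parental cells (adjusted p = 0.0244). Mcoln1, the calcium channel gene, was called in neither line (0.09 and 0.21). The accessory pump subunit gene Atp6ap1 rose by 0.53 in knockout and 0.69 in parental cells and Atp6v0d1, a subunit of the membrane sector, by 0.32 and 0.37. Atp6v1h, a regulatory subunit of the cytosolic sector, fell by 0.38 in knockout and 0.44 in parental cells, and the catalytic subunit gene Atp6v1a had -0.07 and -0.01.

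Of the 2 factors, Tfeb had the lower RNA level and fell with TGF-β in both lines. Tfeb (ENSMUSG00000023990, chromosome 17, 47737030 to 47792419) stood at 11.1 and 13.4 CPM in knockout cells with TGF-β, against 17.7 and 20.1 CPM in untreated knockout cells. It stood at 11.8 and 12.2 CPM in parental cells with TGF-β, against 20.5 and 16.7 CPM in untreated parental cells. All 4 treated libraries lay below all 4 untreated ones, and the fall was 0.63 in knockout cells (SE 0.15, adjusted p = 0.00549) and 0.64 in parental cells (SE 0.15, adjusted p = 0.00557). Tfe3 (ENSMUSG00000000134, chromosome X, 7762560 to 7775202) stood at 34.9 and 37.5 CPM in knockout cells with TGF-β, against 31.4 and 32.3 CPM in untreated knockout cells, and at 55.5 and 57.1 CPM in parental cells with TGF-β, against 60.6 and 66.8 CPM in untreated parental cells. The lines were apart and treatment moved it little: 0.18 in knockout cells (SE 0.10, adjusted p = 0.166) and -0.18 in parental cells (SE 0.10, adjusted p = 0.165). Tfeb and Tfe3 RNA thus gave no rise with TGF-β that passed the test, while other lysosome genes rose or fell.

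Grn (ENSMUSG00000034708, chromosome 11, 102430315 to 102437048) encodes progranulin, a secreted and lysosomal protein whose loss causes neuronal ceroid lipofuscinosis. It stood at 214 and 213 CPM in knockout cells with TGF-β, against 123 and 139 CPM in untreated knockout cells, and at 211 and 222 CPM in parental cells with TGF-β, against 128 and 129 CPM in untreated parental cells. Treated and untreated libraries did not overlap, while those of the lines did, with rises of 0.70 in knockout cells (SE 0.09, adjusted p = 4.65e-05) and 0.75 in parental cells (SE 0.09, adjusted p = 3e-05). Sqstm1 (ENSMUSG00000015837, chromosome 11, 50199366 to 50210827) encodes p62, a receptor that carries ubiquitinated cargo to autophagosomes. It stood at 689 and 718 CPM in knockout cells with TGF-β, against 511 and 616 CPM in untreated knockout cells, and at 785 and 761.9 CPM in parental cells with TGF-β, against 695 and 635 CPM in untreated parental cells. The rise of 0.32 in knockout cells had an adjusted p of 0.024 (SE 0.10), and the 0.22 in parental cells one of 0.104 (SE 0.10). Of its exonic length 17.3% lies opposite Mrnip.

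**Figure D2:**
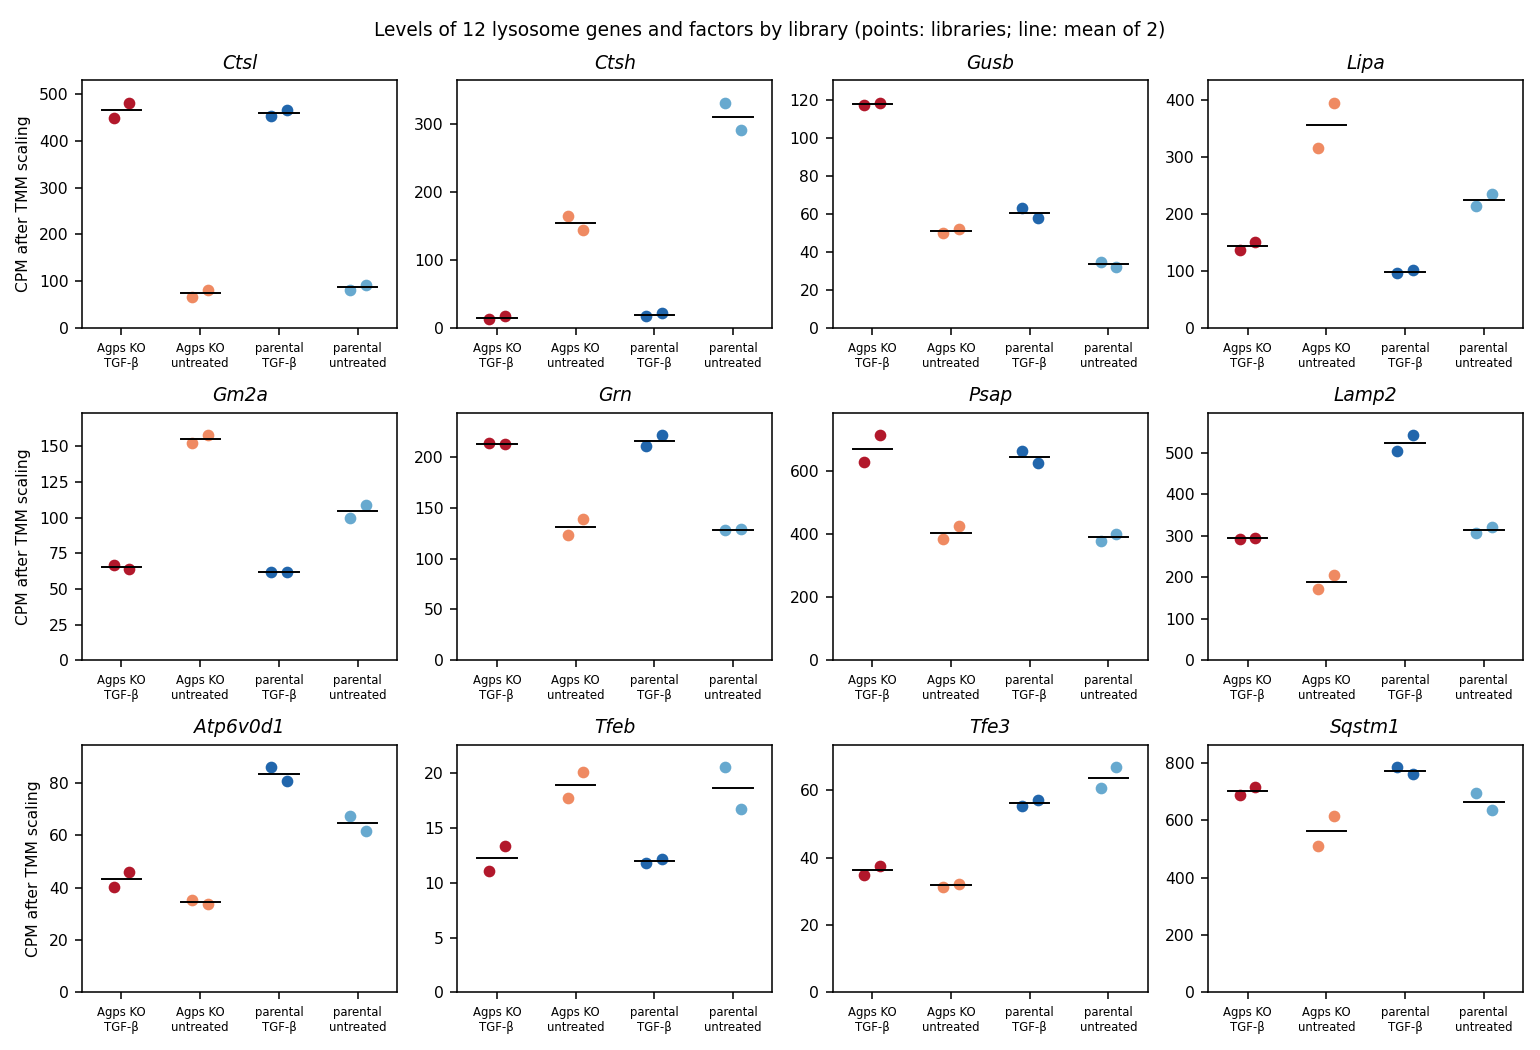
Levels of 12 lysosome genes and factors in the 8 libraries. Each panel is a gene, the y axis is CPM after TMM scaling from 0, points are libraries and lines are the mean of 2. Ctsl reaches 449 to 482 CPM in treated cells of both lines, Lipa lies lower in treated cells, and Tfe3, Lamp2 and Atp6v0d1 lie lower in the knockout line with and without TGF-β.

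Levels per kilobase used all annotated exons of a gene together, which can be longer than the transcript present, so they compare genes only roughly. Among the tested genes, the highest mean levels in knockout cells with TGF-β were those of Psap (244 CPM per kb), Lamp1 (225) and Sqstm1 (209.7). The lowest were those of Tfeb (2.15), Ctsh (3.35), Mcoln1 (3.41) and Atp6v1h (3.48). In untreated parental cells Lamp1 (254 CPM per kb), Sqstm1 (198), Ctsz (152) and Psap (142) were at the top, and Tfeb (3.28), Mcoln1 (4.38), Atp6v1h (4.58) and Tfe3 (6.88) at the bottom. The summed level of the set was 5501 and 5756 CPM in knockout cells with TGF-β, 4721 and 5291 CPM in untreated knockout cells, 6100 and 6250 CPM in parental cells with TGF-β, and 5429.65 and 5434 CPM in untreated parental cells.

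With 2 libraries a group some of these calls rest on a single library. When 1 library was left out in turn, with the lone sample left assumed to vary like the other groups, 16 of 22 calls held in each line. In knockout cells the call of Ctsd was lost without untreated replicate 1 or treated replicate 2 (adjusted p up to 0.209), that of Gla without untreated replicate 1 or either treated library (0.119), and that of Sqstm1 likewise (0.191). That of Atp6v0d1 was lost without either untreated library or treated replicate 2 (0.163), that of Atp6v1h without untreated replicate 2 or treated replicate 1 (0.0876), and that of Tfeb without treated replicate 1 (0.0641). In parental cells the call of Lamp1 was lost without untreated replicate 2 or either treated library (0.199), that of Ctsa without either untreated library or treated replicate 1 (0.298), and that of Man2b1 without any of the 4 parental libraries (0.179). That of Man2b1 was also lost with library totals alone (0.0548) and with no filter on low counts (0.0514), that of Ctsa with upper quartile scaling (0.0621) and, in knockout cells, that of Atp6v0d1 in a fit of only the 2 groups compared (0.0540). That of Neu1 was lost without untreated replicate 2 or any of the 4 treated libraries of both lines (0.206), and those of Gaa (0.0914) and Atp6v0d1 (0.107) without untreated replicate 2 or treated replicate 1.

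The design also asks whether the lines respond differently to TGF-β. The difference of the log2 fold changes (knockout minus parental) was called for 0 of the 36 genes, and for 2.4% of all genes, 1.25% in favour of the knockout line and 1.15% in favour of the parental line. At an unadjusted p under 0.05 there were 4 genes with a positive and 1 with a negative difference, and DESeq2 called 0. With a replicate block Gm2a was called (-0.50, adjusted p = 0.0321), and with no filter on low counts Ctsh was (0.65, adjusted p = 0.00456). In the fit without either, the differences ran from -0.50 (Gm2a, adjusted p = 0.0629) to 0.63 (Ctsh, adjusted p = 0.152). With an SE of 0.12 for Gm2a and 0.20 for Ctsh these values do not show that the responses are equal. Gla, Ppt1 and Sqstm1, called in knockout cells, and Lamp1, Ctsa and Gaa, called in parental cells, are therefore not shown to respond differently between the lines.

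Knockout and parental cells differed in fewer lysosome genes than TGF-β changed. With TGF-β, 5 genes were higher and 7 lower in knockout cells (33.3% called, against 17.9% of all genes; 6.82% of all genes were higher and 11.1% lower). Without it, 4 were higher and 7 lower (30.6%, against 13.7% of all genes; 4.72% higher and 8.94% lower). Here too the listed genes were not matched to all genes by count. The medians of the 36 genes were 0.022 and -0.018. Genes lower in both conditions were Lamp2, Mcoln1, Man2b1, Atp6v0d1 and Tfe3, and Gusb and Lipa were higher in both.

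The genes lower in the knockout line lay mainly on chromosomes 8 and X, where many other genes were lower as well. On chromosome 8 the median log2 fold change of 810 tested genes was -0.47 with TGF-β and -0.46 without, with 47.9% and 46.7% called lower. On chromosome 3 the median of 764 genes was -0.30 and -0.28. On chromosome X the median of 472 genes was 0.03 and -0.02, but the 25th percentile was -0.50 in each condition. Of 10 tested lysosome genes on these 3 chromosomes, 7 were lower and 1 higher with TGF-β, where 35.2% of all genes were lower and 2.54% higher. Without TGF-β 5 were lower and 0 higher, where 32.7% were lower and 1.86% higher. At an unadjusted p under 0.05 there were 6 lower and 0 higher, and DESeq2 also called 5 and 0. Of the 26 genes elsewhere, 0 were lower and 4 higher with TGF-β (4 and 8 at an unadjusted p under 0.05, 0 and 4 in DESeq2), where 7.15% of all genes were lower and 7.51% higher. Without it 2 were lower and 4 higher, where 5.07% and 5.18% were. These chromosomes were picked after their values were seen. Copy number was not measured, and its part and that of clonal difference in these values were not tested.

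Tfe3 had the largest fall of the factors, -0.64 with TGF-β (SE 0.10, adjusted p = 0.00115) and -0.9997 without (SE 0.10, adjusted p = 7.44e-05). Within 5 Mb of Tfe3 on chromosome X, 42 other tested genes had a median of -0.66 with TGF-β and -0.77 without, and 23 and 28 of them were called lower. Less the neighbours' median, the change of Tfe3 was 0.02 with TGF-β and -0.23 without. Lamp2, also on X at 38401357 to 38456454, had -0.84 with TGF-β (SE 0.10, adjusted p = 1.96e-04) and -0.74 without (SE 0.10, adjusted p = 5.4e-04), and its 29 neighbours had medians of -0.70 and -0.69. Lower levels were thus shared by Tfe3 and Lamp2 and most genes around them. Gla and Atp6ap1, elsewhere on X, did not follow: Gla was higher by 0.61 with TGF-β (adjusted p = 0.00906) amid neighbours with a median of 0.10, and Atp6ap1 had -0.18 and -0.02, with neighbours at 0.09 and 0.01.

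On chromosome 8, Atp6v0d1 (105524465 to 105566047) stood at 40.2 and 46.1 CPM in knockout cells with TGF-β, against 86.0 and 80.7 CPM in parental cells with TGF-β. Untreated it stood at 35.2 and 33.8 CPM in knockout cells, against 67.5 and 61.8 CPM in parental cells. The groups did not overlap, at log2 fold changes of -0.95 (SE 0.10, adjusted p = 1.18e-04) and -0.91 (SE 0.10, adjusted p = 1.92e-04), and the 102 tested genes within 5 Mb had medians of -0.70 and -0.82. Man2b1 (85083270 to 85098282) stood at 51.9 and 61.4 CPM in knockout cells with TGF-β, against 76.4 and 81.7 CPM in parental cells with TGF-β, and at 32.8 and 35.5 CPM in untreated knockout cells, against 61.4 and 65.1 CPM in untreated parental cells. Its log2 fold changes were -0.48 and -0.89, and the 93 genes around it had medians of -0.37 and -0.39. Mcoln1 had -0.57 and -0.45 (neighbours -0.27 and -0.28), Lamp1 -0.49 with TGF-β and -0.20 without (adjusted p = 0.232), and Asah1 -0.35 and -0.25 (adjusted p = 0.148 without TGF-β).

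**Figure D3:**
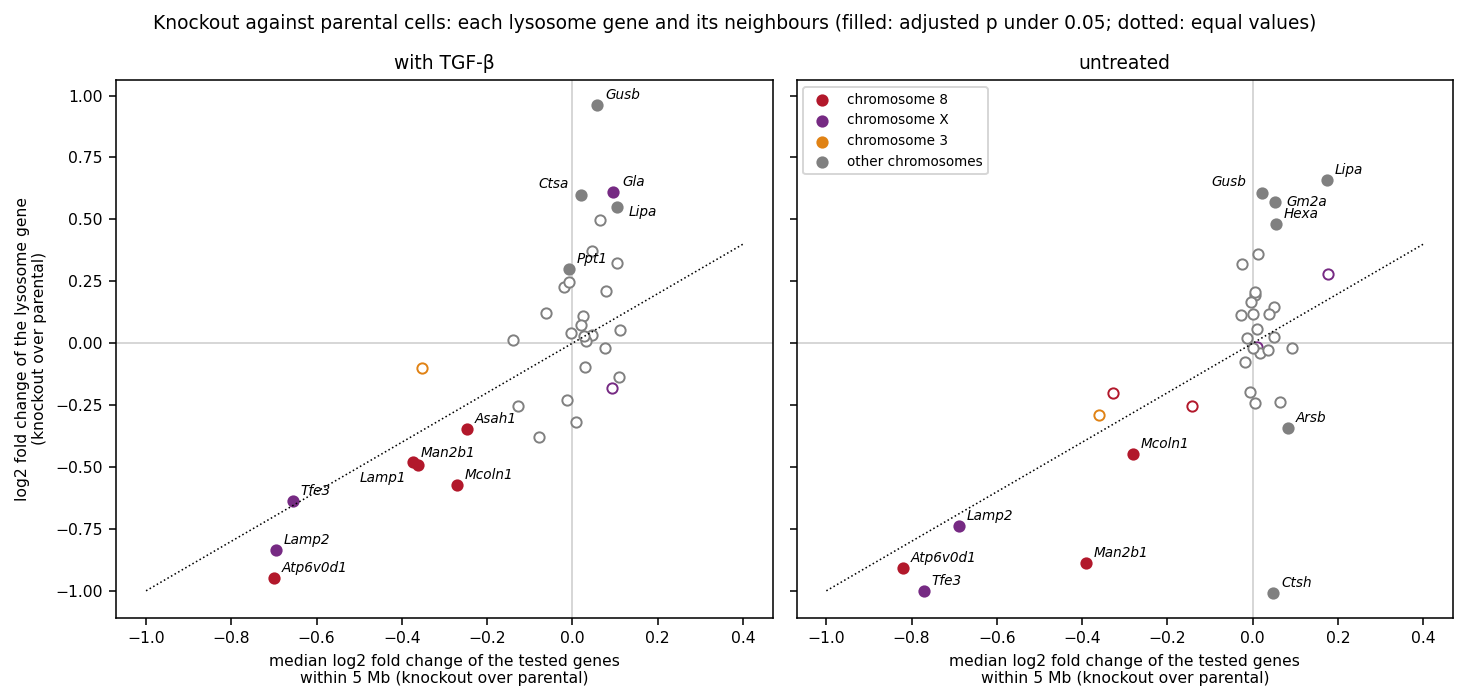
Each lysosome gene against the tested genes around it, with TGF-β (left) and untreated (right). The y axis is the gene's log2 fold change of knockout over parental cells, the x axis the median of the tested genes within 5 Mb, colours are chromosomes, filled points are called and the dotted line marks equal values. Tfe3, Lamp2 and Atp6v0d1 sit at the lower left with neighbour medians from -0.82 to -0.66, while Gusb sits at 0.96 and 0.60 with neighbours at 0.06 and 0.02.

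Ctsh, Gusb, Lipa and Gm2a were called in at least 1 condition and lie where the neighbours' median was nearer 0, between -0.08 and 0.17. A gene was not tested against its neighbours. Less the neighbours' median, the untreated values were -1.06 for Ctsh, 0.58 for Gusb, 0.48 for Lipa and 0.52 for Gm2a, and that of Man2b1 on chromosome 8 was -0.50. With TGF-β they were -0.30, 0.90, 0.45, 0.05 and -0.11 in the same order. Ctsh was lower in untreated knockout cells by 1.01 (SE 0.13, adjusted p = 3.94e-04; 37 neighbours with a median of 0.05), and with TGF-β its log2 fold change was -0.38 (adjusted p = 0.114). Gusb was higher by 0.96 with TGF-β (SE 0.09, adjusted p = 4.87e-05) and by 0.60 without (SE 0.09, adjusted p = 0.00149). Lipa was higher by 0.55 with TGF-β (adjusted p = 0.00596) and 0.66 without (adjusted p = 0.00231), with neighbours at 0.10 and 0.17. Gm2a had 0.07 with TGF-β (adjusted p = 0.631) and was higher by 0.57 without (adjusted p = 0.00112). Ctsa (0.60) and Ppt1 (0.30) were higher with TGF-β. Hexa, the α subunit of hexosaminidase A, was higher by 0.48 without TGF-β, and Arsb was lower by 0.34 without it. Of the exonic length of Arsb 39.9% lies opposite Gm26527 and Gm47210, and of that of Hexa 12.8% opposite Tmem202. Tfeb was called in neither condition (0.03 with TGF-β and 0.02 without, SE 0.16 and 0.15), nor was Grn (-0.02 and 0.03, SE 0.09 each) or Sqstm1 (-0.14 and -0.24, SE 0.10 each).

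Left out in turn, single libraries ended 7 of the 12 calls with TGF-β and 3 of the 11 without. With TGF-β those of Gla (adjusted p up to 0.0881), Asah1 (0.286) and Ppt1 (0.196) were lost without any of the 4 treated libraries, and those of Lamp1 (0.0730) and Mcoln1 (0.0731) without parental replicate 2 or knockout replicate 2. That of Lipa was lost without parental replicate 1 or knockout replicate 2 (0.0716) and that of Man2b1 without parental replicate 2 or knockout replicate 1 (0.0924). Lamp2, Ctsa, Gusb, Atp6v0d1 and Tfe3 were called in each of these fits. Without TGF-β the call of Hexa was lost without either untreated parental library or untreated knockout replicate 2 (0.161). That of Mcoln1 was lost without any parental library, untreated knockout replicate 1 or treated knockout replicate 1 (0.200), and that of Arsb without 6 of the 8 libraries (0.171), the 2 exceptions being untreated parental replicate 2 and treated knockout replicate 1. A fit of only the 2 groups compared also ended the untreated calls of Hexa (0.0905), Mcoln1 (0.1195) and Arsb (0.107), and upper quartile scaling that of Arsb (0.0517). With TGF-β the call of Asah1 was lost with RLE scaling (0.0542) or library totals alone (0.0561), and that of Ppt1 with no filter (0.0984) or without chromosomes 3, 8 and X (0.0662).

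Genes of other lysosome lists also moved in both directions. Of 31 other tested hydrolase genes 15 rose and 3 fell with TGF-β in knockout cells, and 14 rose and 6 fell in parental cells (48.4% and 45.2% higher, against 20.9% and 21.3% of all genes). Their median log2 fold changes were 0.20 and 0.34. Sgsh, a heparan sulfate sulfatase, fell by 3.84 in knockout and 3.64 in parental cells, to 1.11 and 1.33 CPM in treated knockout cells against 16.9 and 18.05 CPM in untreated ones, and 0.848 and 1.49 CPM in treated parental cells against 13.1 and 15.8 CPM in untreated ones. The galactosylceramidase gene Galc rose by 0.45 and 1.08, the hyaluronidase gene Hyal2 by 1.16 and 1.17 and the α-fucosidase gene Fuca2 by 2.37 and 0.95, in the lines in that order. Galns, a keratan sulfate sulfatase, fell by 0.82 and 1.16.

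Of 25 other membrane proteins and transporters 5 rose and 5 fell in knockout cells and 4 rose and 6 fell in parental cells, 40% called in each line, near the shares of all genes. Npc1, the cholesterol exporter, rose by 0.67 and 0.62, and Tpcn1, an ion channel gene, fell by 1.102 and 0.87. Of 16 other pump subunits 2 rose and 3 fell in knockout cells and 5 rose and 4 fell in parental cells (31.3% and 56.3% called, against 41.4% and 42.5% of all genes). Tcirg1, the a3 subunit of osteoclast and lysosome pumps, rose by 0.76 and 0.83, while Atp6v0e2 fell by 1.87 and 1.31. Atp6v0a1 had 0.00 in knockout cells (adjusted p = 0.984) and rose by 0.75 in parental cells, and the difference was called (-0.75, adjusted p = 0.0391), though not without any 1 of 6 of the 8 libraries (up to 0.198). Of 11 genes that sort hydrolases 2 rose and 1 fell in knockout cells and 2 rose and 3 fell in parental cells (27.3% and 45.5% called). Igf2r, the large mannose 6-phosphate receptor, fell by 0.98 in knockout cells and by 0.45 in parental cells, where the adjusted p was 0.0565 without treated parental replicate 1. Nagpa, which uncovers the mannose 6-phosphate tag, rose by 0.88 and 1.12.

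Of 17 relatives and regulators of the factors 0 rose and 1 fell in knockout cells (0 and 3 at an unadjusted p under 0.05, 0 and 1 in DESeq2), and 2 rose and 2 fell in parental cells (5.88% and 23.5% called, against 41.4% and 42.5% of all genes). Flcn, the folliculin gene, whose product acts on the Rag GTPases that keep TFEB and TFE3 in the cytoplasm, had -0.24 in knockout cells (adjusted p = 0.178) and rose by 0.66 in parental cells. Its difference of -0.91 was called (adjusted p = 0.0341), though not without any 1 of 6 of the 8 libraries (up to 0.192). Rragb, a Rag GTPase gene, fell by 0.85 and 0.77. Mitf, the melanocyte factor of the same family, had -0.37 in knockout cells (adjusted p = 0.105) and fell by 0.56 in parental cells, where the adjusted p was up to 0.175 without untreated replicate 2 or either treated library. Of 36 autophagy genes 6 were called higher and 5 lower in knockout cells, and 2 higher and 8 lower in parental cells (30.6% and 27.8% called). Gabarapl1, of the ATG8 family that coats autophagosomes, fell by 1.43 and 1.17, and Wipi1, which binds forming autophagosomes, rose by 1.21 and 0.66.

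Between the lines 17.9% of all genes were called with TGF-β and 13.7% without. Among the other hydrolases 3 were higher and 5 lower in knockout cells with TGF-β, and 3 higher and 6 lower without (25.8% and 29.0% called). Among the other pump subunits 2 were higher and 4 lower with TGF-β, and 1 and 1 without (37.5% and 12.5%). Sorting genes had 2 higher and 2 lower with TGF-β and 1 and 1 without (36.4% and 18.2%), and relatives and regulators of the factors 1 and 2 with TGF-β and 2 and 2 without (17.6% and 23.5%). The other membrane proteins had 4 higher and 2 lower with TGF-β and 1 and 2 without (24% and 12%). Among autophagy genes 1 was higher and 4 lower with TGF-β, and 0 higher and 3 lower without (13.9% and 8.33% called; without TGF-β 1 and 5 at an unadjusted p under 0.05, 0 and 3 in DESeq2). Map1lc3b (-0.87 with TGF-β and -1.42 without) and Gabarapl2 (-1.06 and -1.08), both of the ATG8 family, and the nuclease gene Dnase2a (-0.40 and -0.72) lie on chromosome 8. Lamtor3 (-0.95 and -0.88), of the Ragulator complex, and the membrane protein gene Mfsd1 (-0.80 and -0.88) lie on chromosome 3. Atp6ap2, a pump accessory gene on chromosome X, had -0.74 and -0.48. Away from these chromosomes calls went both ways. The pump subunit gene Atp6v0a4 was higher by 1.19 with TGF-β and 0.80 without. With TGF-β Fuca2 (1.54 to 1.73 over all fits) and the sorting gene Gga2 (0.57 to 0.64) were higher too. Igf2r (-0.92 to -0.79), Atp6v0e2 (-0.93 to -0.78) and the transporter gene Ctns (-0.75 to -0.70) were lower with TGF-β.

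**Figure D4:**
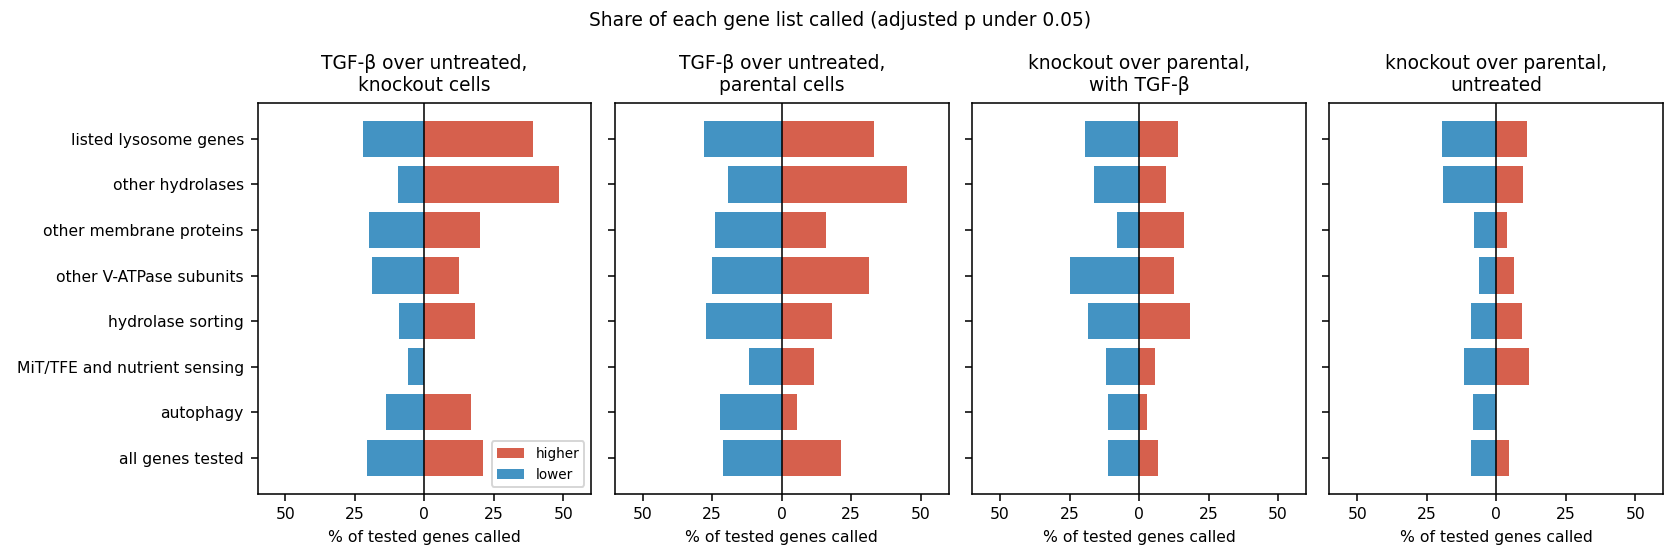
Share of each gene list called in the 4 comparisons. The x axis is the percentage of tested genes with an adjusted p under 0.05, higher to the right in red and lower to the left in blue. All genes tested are the bottom row: with TGF-β 20.9% of them rose in knockout cells and 21.3% in parental cells, against 38.9% and 33.3% of the listed lysosome genes.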

How the data were processed

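Per the submitters' processing notes, the tools were STAR 2.7.1a, featureCounts 1.6.2 and DESeq2 1.26.0, with the genome builds GRCm38 and mm10. The authors deposited raw counts per gene, 1 file per library, for 55450 identifiers. Their table of normalized values was not used here. Neither the annotation release nor the strandedness of counting is stated in the labels. Identifiers were matched to GENCODE M21, and the 37 symbols matched 37 identifiers.

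Genes passing filterByExpr (minimum count 10) were scaled by TMM and fitted in edgeR 4.0.16 (R 4.3.3) with a mean per group over all 8 libraries, which left 4 residual degrees of freedom. The quasi-likelihood test gave 5 contrasts, with Benjamini-Hochberg adjustment over 14641 genes and a threshold of 0.05. These genes held at least 99.9% of the counts of each library. Standard errors were derived from the F statistic. The scripts were tested on simulated data. Alternatives were DESeq2 1.42.0, other scalings, no filter, a replicate block, fits of 2 groups and leaving out each library. Fits without chromosomes 3, 8 and X and values less the neighbours' median were added after seeing the data.

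The members and lists were chosen with earlier results of these data known. The naming rule takes every listed gene, Agps, and up to 2 called genes per direction, comparison and other list, those of lowest adjusted p with an average log2 CPM of at least 1, of which the text gives examples. Library values are given for listed genes called with a log2 fold change of at least 1 in size and for Tfeb, Tfe3, Sqstm1 and Grn. Promoters came from RefSeq (GRCm38.p6).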

Additional observations from a re-analysis of the deposited data

Results flagged for a closer look

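Of Agps and the genes of the other lists, 6 had a TGF-β change that differed between knockout and parental cells. This was by a test of the difference itself (edgeR, knockout minus parental, log2). That test called 352 of all 14641 genes (2.4%), and only the listed genes and Agps were looked at here. By list, the calls were 1 of 16 other pump subunits and 1 of 17 relatives and regulators of the factors. Of 5 macrophage markers 1 was called higher and 1 lower, and of 4 epithelial markers 1 was. Among 31 other hydrolases, 25 other membrane proteins, 11 sorting genes and 36 autophagy genes 0 were called. Atp6v0a1, a subunit of the pump's membrane sector, had a difference of -0.75 (adjusted p = 0.0391), standing at 101 and 91.5 CPM in knockout cells with TGF-β, 85.9 and 106 CPM in untreated knockout cells, 133 and 147 CPM in parental cells with TGF-β and 78.9 and 87.9 CPM in untreated parental cells. Flcn, the folliculin gene, had a difference of -0.91 (adjusted p = 0.0341), with 22.04 and 18.6, 25.3 and 22.9, 29.5 and 27.8, and 19.9 and 16.3 CPM in the same groups. Csf1r, the receptor gene of a macrophage growth factor, had -1.67 (adjusted p = 5.55e-04), with 7.28 and 6.43 CPM in knockout cells with TGF-β against 29.6 and 31.1 CPM untreated, and 21.6 and 23.1 CPM in parental cells with TGF-β against 31.3 and 30.6 CPM untreated. Cd14, an endotoxin coreceptor gene, had 0.97 (adjusted p = 0.0124), Krt8, an epithelial keratin gene, 0.65 (adjusted p = 0.0464), and Agps itself 0.73 (adjusted p = 0.0332). Leaving out single libraries ended the calls of Atp6v0a1 (6 of 8 libraries, adjusted p up to 0.198), Flcn (6, up to 0.192), Krt8 (6, up to 0.226), Agps (5, up to 0.147) and Cd14 (4, up to 0.0753), and Csf1r stayed called. Krt8 was also not called with upper quartile scaling and without chromosomes 3, 8 and X.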

How the results depend on the processing

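All 72 calls of listed genes and Agps that DESeq2 or the replicate block could test were kept in both. Library totals alone, upper quartile scaling and no filter each lost 2 of 72, RLE scaling 1 of 72, fits of only the 2 groups compared 5 of 71 (Agps with TGF-β in knockout cells, adjusted p = 0.0546, among them) and the fit without chromosomes 3, 8 and X 1 of 47, and leaving out a library lost 78 of 576. The other losses stand beside their genes. In fits of only the 2 groups compared, 342 genes were higher and 766 lower in untreated knockout cells (691 and 1309 in the fit of all groups), and 8 listed genes were higher in knockout cells with TGF-β (5). For the difference of the TGF-β changes, 469 genes were higher and 386 lower with no filter and 349 and 330 with the replicate block (183 and 169 without either), where 1 listed gene was called each time: Ctsh at 0.65 (adjusted p = 0.00456) with no filter and Gm2a at -0.50 (adjusted p = 0.0321) with the block. The causes were not tested. The labels do not say what a replicate number shares. Deviations of same-numbered libraries correlated at 0.0218 to 0.308, highest between untreated cells of the lines. These values do not settle whether the libraries are paired. With the replicate block 1015 genes were higher and 1644 lower in untreated knockout cells, against 691 and 1309 without it.

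With 1 library left out, 411 to 615 genes were higher in untreated knockout cells, and with TGF-β 364 to 1138 were higher and 805 to 1773 lower, of the listed genes 2 to 6 and 3 to 8. For the difference, 53 to 223 were higher and 48 to 183 lower. Reversed test results were of values not called. For untreated knockout against parental cells, leaving out a library gave Tfeb at -0.12 to 0.18 and Grn at -0.064 to 0.11, and leaving out chromosomes 3, 8 and X gave -0.012 and -0.00644. With TGF-β, Tfeb ran from -0.10 to 0.16 and Grn from -0.057 to 0.018 without a library, and Grn had 0.0088 with library totals. For the difference, Tfeb had -0.021 with upper quartile scaling and, without a library, -0.15 to 0.15, Sqstm1 -0.026 to 0.24 and Grn -0.13 to 0.044. Less the median of its surroundings the sign changed for Lamp2 untreated (0.083, 2 Mb), Mcoln1 untreated (0.019, chromosome), Asah1 with TGF-β (0.12, chromosome) and Tfe3 with TGF-β (0.037, 0.020 and 0.0015 at 2, 5 and 10 Mb).

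No call of the named genes of other lists changed sign. Lost were 4 of 110 in DESeq2, 4 with upper quartile scaling, 3 with library totals alone, 2 with no filter, 0 with RLE scaling or the replicate block, 8 of 105 in fits of only the 2 groups compared, 4 of 75 without chromosomes 3, 8 and X and 101 of 880 on leaving out a library. Ctss, at 0 counts, could not be tested.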
